A study of Mus musculus with 20 samples.

Results

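Naive CD4 T cells with high surface CD5 were compared after 22 hours of culture and directly after sorting. The comparison takes 8 of the 20 libraries of the study, chosen by their titles: the 4 rested CD5hi and the 4 fresh CD5hi libraries. Their source was spleen and lymph node of C57BL/6 mice, 8 to 12 weeks old, with a Foxp3-GFP reporter, which marks regulatory T cells (Treg). The cells were sorted as TCRb+ CD4+ CD8-, outside the Foxp3-GFP gate, low for CD44 and within the 15% with the highest surface CD5. A dump channel removed cells that stained for B220 (B cells), NK1.1 (NK cells), Ly6G (granulocytes), the myeloid markers CD11b, CD11c and F4/80, or the activation marker CD69. Rested CD5hi cells were sorted and then kept for 22 hours with interleukin 7 (IL-7) at 10 ng per mL, and fresh CD5hi cells were lysed right after the sort. Per the series description, resting takes the cells away from self-peptide on major histocompatibility complex molecules. None of the libraries used here was cultured without IL-7 or with these contacts kept, so culture, IL-7 and the loss of self-contacts cannot be told apart in the values below. The other 12 libraries are rested and fresh CD5lo cells, taken within the 15% with the lowest surface CD5 and otherwise handled in the same way, and Treg cells, with 4 libraries in each group.

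As background, the T cell receptor (TCR) of a naive cell in the body keeps touching self-peptides and sends weak, tonic signals, which induce genes such as Nr4a1 and the Egr factors. CD5 is a surface brake on TCR signalling whose level follows the strength of those signals, so CD5hi cells are the more self-reactive naive cells. IL-7 is the survival cytokine of naive T cells. It acts through a receptor made of Il7r and the common gamma chain Il2rg, activates the transcription factor STAT5, and is known to induce Bcl2 and the feedback inhibitors of the SOCS family.

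The libraries held 38211406 to 50654225 counts in the rested CD5hi group and 43770193 to 59065224 in the fresh CD5hi group. Levels are given as CPM, counts for each 1000000 of the scaled library total, so they are relative to all other RNA. In a bulk sample, fewer cells that express a gene and less of its RNA per cell cannot be told apart. The labels describe every library as pooled from males and females. All 4 fresh CD5hi libraries and rested replicate 3 carried Y-linked transcripts, summed over 4 genes to 366 to 405 CPM in the fresh libraries and 326 CPM in rested replicate 3, and next to no Xist. Rested replicates 1, 2 and 4 carried 897.4 to 1083 CPM of Xist and at most 0.0894 CPM of Y-linked transcripts. The sex of the mice, and any preparation that went with it, therefore cannot be told apart from resting except through rested replicate 3. Set against the fresh libraries on its own, that library had the same sign for 6892 of the 6978 genes called over all 4 rested libraries (98.8%), though the replicates that made the calls include it. The spread between replicates was wider in the rested group, with a median SD of log2 CPM of 0.1618 in rested and 0.0955 in fresh libraries. Only the rested group mixes libraries with Xist and with Y-linked transcripts, and the part of this in the spread was not tested.

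Resting went with small changes in many genes and large changes in few. Of 13309 genes tested, 6978 passed an adjusted p of 0.05 (52.4%), with 3486 higher (26.2%) and 3492 lower (26.2%) in rested cells. All adjusted p-values are from the edgeR quasi-likelihood test with Benjamini-Hochberg adjustment over all genes tested, with 4 libraries in each group. The median size of a called change was 0.464 on the log2 scale, and the median over all genes tested was 0. A change of at least 2-fold was called for 616 genes that were higher (4.63%) and 879 that were lower (6.6%). Changes of at least 16-fold were found among 43 called genes that were higher and 95 that were lower. All 4 rested libraries lay above all 4 fresh ones for 3014 genes (22.6%) and below them for 3081 (23.1%). The counts of list members and the separate groups given below are to be read beside these shares over all genes.

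**Figure D1:**
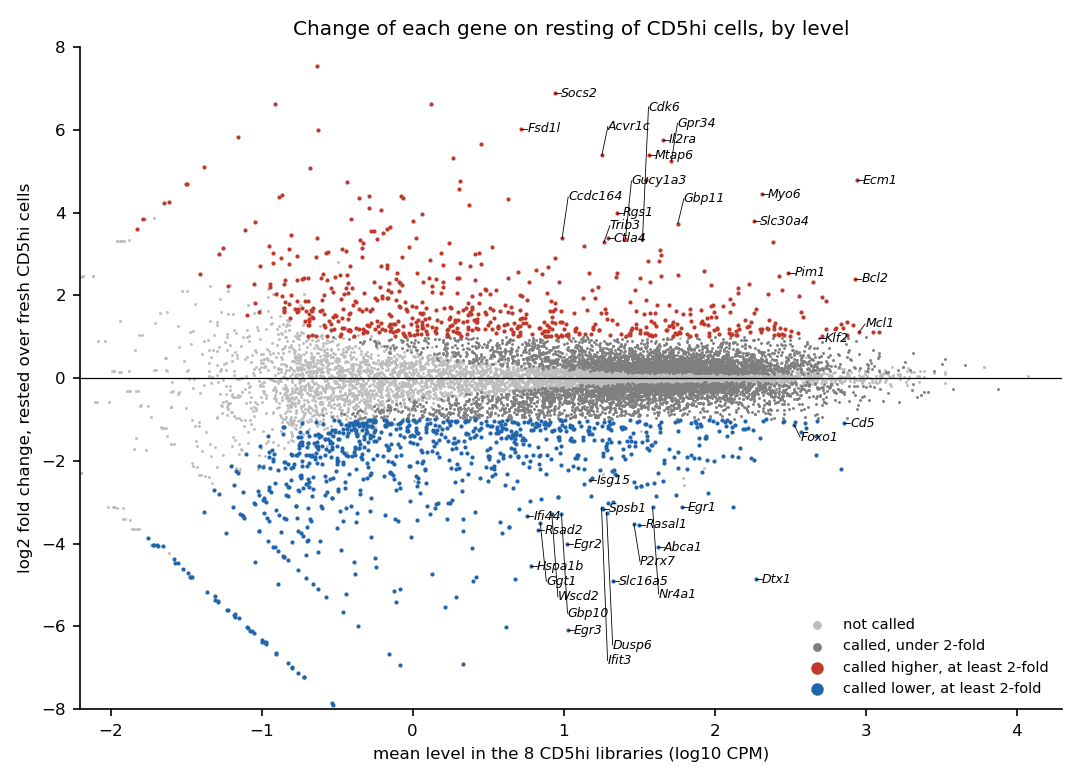
Change on resting of CD5hi cells (vertical axis, log2 fold change, rested over fresh) against mean level over the 8 libraries (horizontal axis, log10 CPM). Of the 13309 tested genes, those within the axis limits are drawn. Each point is a gene. Red and blue points are genes called higher and lower at 2-fold or more (616 and 879 among all genes tested). Dark grey points are called with smaller changes and light grey points are not called. Socs2 and Il2ra lie near the top, Egr3 and Dtx1 near the bottom, and the diagonal line of blue points at the lower left is made of genes with next to no counts after resting.

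The genes used for the sort were checked first. Cd5 RNA was 460.0, 456, 488 and 442 CPM in the rested libraries, against 980.0, 989.6, 905 and 1055 CPM in the fresh ones. Every rested value lay below every fresh value (log2 fold change -1.09 ± 0.058 (SE), edgeR adjusted p = 1.7e-12). In CD5lo cells Cd5 averaged 94.5 ± 6.49 CPM rested and 148 ± 9.83 CPM fresh (SD, n = 4), well below CD5hi cells in both states. The cell type field of the CD5hi labels names these cells CD5lo, while its gate text and the titles give CD5hi, and these levels go with the titles. Cd4 fell by a smaller step, to 731 ± 27.6 CPM in rested cells, against 922 ± 34.5 CPM in fresh cells (log2 fold change -0.33, edgeR adjusted p = 1.5e-06). Cd44, the memory marker that the sort kept low, averaged 8.19 ± 1.25 CPM rested and 21.01 ± 1.38 CPM fresh (log2 fold change -1.36, edgeR adjusted p = 2e-10). Cd69, an early activation marker that was also in the dump channel, measured 7.95, 5.33, 14.4 and 8.51 CPM in the rested libraries, against 52.5, 52.04, 58.3 and 59.5 CPM in the fresh ones. Rested replicate 3 was the highest rested library for Cd69, and it was still far below the fresh ones (log2 fold change -2.62, edgeR adjusted p = 1.4e-08). Foxp3, the Treg factor, was 29.8, 29.2, 24.6 and 30.9 CPM in the rested libraries, against 23.6, 22.4, 25.4 and 24.98 CPM in the fresh ones. Rested replicate 3 lay inside the fresh range (log2 fold change 0.25, edgeR adjusted p = 0.0019). With rested replicate 3 as the only rested library, the Foxp3 change was 0.045 (edgeR adjusted p = 0.68).

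Genes that gamma-chain cytokines and STAT5 are known to regulate mostly rose. Of 24 such genes, all tested, 17 rose and 3 fell, with a median log2 fold change of 1.06, against 26.2% higher, 26.2% lower and a median of 0 over all genes. Socs2, Fsd1l and Il2ra had the largest rises of all called genes with separate groups and at least 10 CPM in the higher group. Il2ra, the alpha chain that gives the interleukin 2 (IL-2) receptor its high affinity, was 98.9, 81.8, 80.6 and 93.2 CPM in the rested libraries, against 1.899, 1.6, 1.22 and 1.85 CPM in the fresh ones. Socs2, a STAT5-induced inhibitor of cytokine signalling, was 18.9, 19.8, 14.2 and 16.9 CPM in the rested libraries, against 0.0863, 0.316, 0.142 and 0.0666 CPM in the fresh ones. Rested and fresh libraries were far apart for both genes. The log2 fold change was 5.75 ± 0.11 (SE) for Il2ra (edgeR adjusted p = 1.4e-19) and 6.88 ± 0.21 (SE) for Socs2 (edgeR adjusted p = 1.8e-16).

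The survival kinase genes Pim1 and Pim2 and the anti-apoptotic gene Bcl2 rose in the same list. Pim1 was 543, 555, 514 and 492 CPM in the rested libraries, against 92.9, 88.96, 92.5 and 87.5 CPM in the fresh ones. Pim1 did not overlap between the groups, with the rested libraries above the fresh ones (log2 fold change 2.54 ± 0.054 (SE), edgeR adjusted p = 4.3e-19). Bcl2 was 1474, 1434, 1373 and 1465 CPM in the rested libraries, against 240.2, 271, 305 and 271 CPM in the fresh ones. Bcl2 set the groups apart, with all rested values above all fresh values (log2 fold change 2.402 ± 0.099 (SE), edgeR adjusted p = 2.3e-14). The 4 libraries of each group kept close together for both, as the plot of levels in single libraries shows. Pim2 averaged 232 ± 23.4 CPM rested and 87.1 ± 7.21 CPM fresh (log2 fold change 1.41, edgeR adjusted p = 1.5e-11). Mcl1, another anti-apoptotic relative of Bcl2, averaged 1236 ± 139.8 CPM rested and 574 ± 40.5 CPM fresh (log2 fold change 1.11, edgeR adjusted p = 2.1e-09). Cish, a feedback inhibitor of STAT5, averaged 54.97 ± 3.31 CPM rested and 14.9 ± 2.64 CPM fresh (log2 fold change 1.88, edgeR adjusted p = 9.8e-11). Socs1, which restrains several cytokine receptors, averaged 82.9 ± 8.36 CPM rested and 27.2 ± 3.52 CPM fresh (log2 fold change 1.61, edgeR adjusted p = 1.4e-11). Socs3 moved least of the SOCS genes named here, at 191 ± 9.61 CPM rested and 129 ± 21.9 CPM fresh (log2 fold change 0.56, edgeR adjusted p = 1.5e-05). The list also holds Tnfrsf18, which encodes the costimulatory receptor GITR and averaged 150.2 ± 11.9 CPM rested and 44.3 ± 0.697 CPM fresh. Id2, an inhibitor of E proteins, averaged 123 ± 19.3 CPM rested and 60.6 ± 5.35 CPM fresh.

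Bcl6, Gfi1 and Ccnd3 were the 3 members that fell. Bcl6 encodes a transcriptional repressor of the follicular helper programme that STAT5 is known to repress in T cells. It was 6.73, 6.74, 8.28 and 8.38 CPM in the rested libraries, against 40.9, 36.6, 31.1 and 32.6 CPM in the fresh ones. Bcl6 was lower in every rested library than in any fresh one (log2 fold change -2.23 ± 0.104 (SE), edgeR adjusted p = 1.9e-13). The window of 250 bases before 1 of its 2 RefSeq starts (GRCm38.p6, chr16:23981284-23981533, minus strand) is shown because it holds 3 matches to the STAT motif TTCNNNGAA, in capitals, 5′ to 3′ on the gene's strand.
Bcl6: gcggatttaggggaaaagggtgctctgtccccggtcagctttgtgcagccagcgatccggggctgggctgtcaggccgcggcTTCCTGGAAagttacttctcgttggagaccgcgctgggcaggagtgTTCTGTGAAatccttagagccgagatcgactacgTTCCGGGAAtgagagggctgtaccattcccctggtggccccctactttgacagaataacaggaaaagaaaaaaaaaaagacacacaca
A match to this motif was present in 5 of the 20 promoters of the cytokine list found in the RefSeq table (25.0%), in 7.02% of the table's 32851 windows and in 7.34% of the 9250 tested genes with a window. It was also present in 6 of 25 promoters of the type I interferon list described below (24.0%), whose genes mostly fell. The TCR-induced list had it in 3 of 18 promoters (16.7%) and the cholesterol list in 1 of 15 (6.67%). The share was 7.66% among genes called higher and 6.77% among those called lower. The motif was searched on both strands, and a match describes letters only. Shares of lists and of tested genes count each gene once, if any of its windows holds a match.

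**Figure D2:**
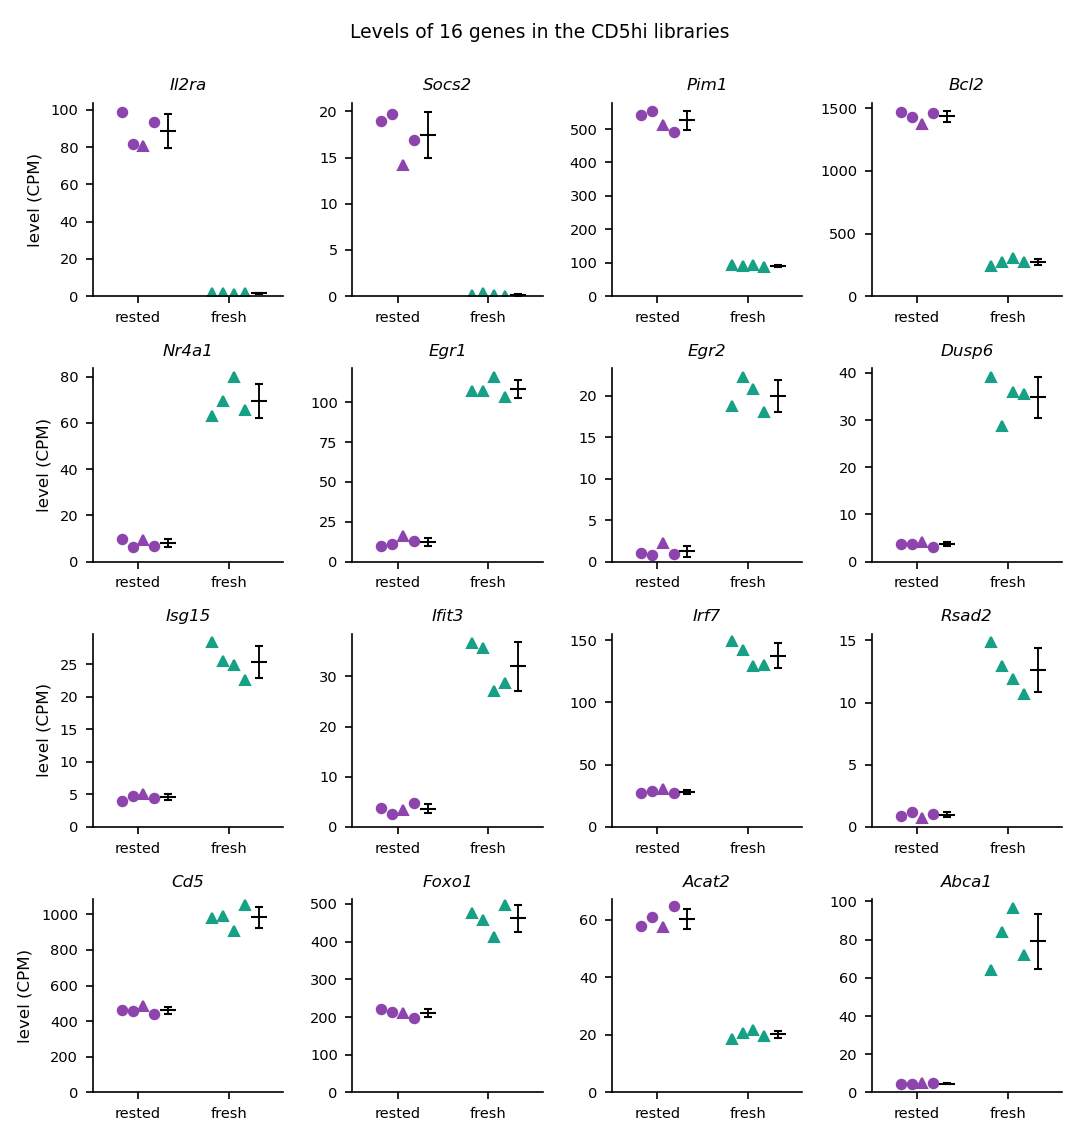
Level of 16 genes (vertical axes, CPM, each from 0) in the 4 rested and 4 fresh CD5hi libraries. Each point is a library, triangles carry Y-linked transcripts and circles carry Xist, and the black bar gives the mean ± SD of each group. In all 16 panels the rested and fresh libraries are apart, and the rested triangle, replicate 3, lies with the other rested libraries.

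Among 25 cytokine receptor chains, 10 rose and 9 fell. The IL-7 receptor chain Il7r itself was 655, 594, 785 and 978 CPM in the rested libraries, against 677, 643, 555 and 704 CPM in the fresh ones. The groups overlapped, and the difference did not pass the test (log2 fold change 0.22, edgeR adjusted p = 0.22). With rested replicates 3 and 4 as the only rested libraries the change was 0.459 (edgeR adjusted p = 0.0063), and with replicates 1 and 2 it was -0.058 (edgeR adjusted p = 0.73). In CD5lo cells Il7r changed by 0.51 (edgeR adjusted p = 0.0074). The common gamma chain Il2rg, which Il7r pairs with, averaged 430.4 ± 33.6 CPM rested and 613 ± 17.6 CPM fresh (log2 fold change -0.51, edgeR adjusted p = 1.5e-07). The IL-2 receptor beta chain Il2rb averaged 61.1 ± 2.66 CPM rested and 33.8 ± 1.596 CPM fresh (log2 fold change 0.85, edgeR adjusted p = 4.8e-08). The interleukin 4 receptor chain Il4ra averaged 989 ± 82.1 CPM rested and 430.4 ± 14.4 CPM fresh (log2 fold change 1.201, edgeR adjusted p = 3.3e-12). Il10ra, which binds the inhibitory cytokine interleukin 10, was 157, 157, 147 and 159 CPM in the rested libraries, against 29.5, 33.3, 34.2 and 32.6 CPM in the fresh ones. Its rested values were all above its fresh ones (log2 fold change 2.26 ± 0.084 (SE), edgeR adjusted p = 3.9e-15). Ifngr1, the ligand-binding chain of the interferon gamma receptor, averaged 270.1 ± 15.7 CPM rested and 91.5 ± 12.2 CPM fresh (log2 fold change 1.56, edgeR adjusted p = 1.1e-11). Il12rb1, shared by the receptors for interleukins 12 and 23, fell to 0.401 ± 0.253 CPM in rested cells, against 3.22 ± 0.667 CPM in fresh cells (log2 fold change -2.95, edgeR adjusted p = 2.1e-08).

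Genes induced by TCR signals were mostly lower after resting. Of 28 listed genes 25 were tested, of which 15 fell and 4 rose, with a median log2 fold change of -1.02. Nr4a1, the orphan nuclear receptor used as a reporter of TCR signalling, was 9.97, 6.41, 9.15 and 6.53 CPM in the rested libraries, against 62.9, 69.7, 80.00 and 65.6 CPM in the fresh ones. Nr4a1 did not overlap between the groups, with the rested libraries below the fresh ones (log2 fold change -3.12 ± 0.12 (SE), edgeR adjusted p = 9.6e-15). Egr1, an early TCR-induced zinc finger factor, was 9.92, 10.8, 16.1 and 12.7 CPM in the rested libraries, against 107, 107, 116 and 103 CPM in the fresh ones. Egr1 set the groups apart, with all rested values below all fresh values (log2 fold change -3.13 ± 0.19 (SE), edgeR adjusted p = 1e-11). Egr2, a relative that restrains T cell activation, was 1.09, 0.764, 2.19 and 0.872 CPM in the rested libraries, against 18.8, 22.2, 20.8 and 18.03 CPM in the fresh ones. Egr2 was lower in every rested library than in any fresh one (log2 fold change -4.01 ± 0.24 (SE), edgeR adjusted p = 1.4e-11). Egr3, the third Egr factor here, was 0.212, 0.281, 0.575 and 0.134 CPM in the rested libraries, against 20.2, 22.5, 21.7 and 19.9 CPM in the fresh ones. It had the largest fall of the called genes with separate groups and at least 10 CPM in fresh cells, and its rested values were close to 0 (log2 fold change -6.09 ± 0.21 (SE), edgeR adjusted p = 1.8e-15). The orphan receptor gene Nr4a3 averaged 2.998 ± 0.343 CPM rested and 10.9 ± 1.18 CPM fresh (log2 fold change -1.86, edgeR adjusted p = 1.6e-10). Nab2, a corepressor of Egr proteins, averaged 48.2 ± 4.26 CPM rested and 103 ± 17.8 CPM fresh (log2 fold change -1.096, edgeR adjusted p = 3.3e-09).

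Dusp6, a phosphatase that is induced by and switches off the kinase ERK, was 3.74, 3.62, 4.11 and 3.15 CPM in the rested libraries, against 39.2, 28.8, 35.9 and 35.5 CPM in the fresh ones. Dusp6 did not overlap between the groups, with the rested libraries below the fresh ones (log2 fold change -3.25 ± 0.11 (SE), edgeR adjusted p = 9.1e-16). Tnfrsf9, a costimulatory receptor gene of the TNF receptor family, averaged 2.67 ± 0.505 CPM rested and 11.1 ± 1.06 CPM fresh (log2 fold change -2.07, edgeR adjusted p = 2.6e-12). The members that rose were Bhlhe40, Tnfrsf4, Spry1 and Icos. Bhlhe40, a repressor that also responds to hypoxia and to the clock, averaged 4.33 ± 1.01 CPM rested and 0.855 ± 0.2704 CPM fresh (log2 fold change 2.36, edgeR adjusted p = 9e-08). Tnfrsf4, the costimulatory receptor OX40, was 50.7, 50.8, 46.5 and 45.6 CPM in the rested libraries, against 10.96, 11.04, 11.97 and 10.5 CPM in the fresh ones. Tnfrsf4 set the groups apart, with all rested values above all fresh values (log2 fold change 2.12, edgeR adjusted p = 6.7e-15). Spry1, an inhibitor of the ERK pathway, averaged 4.47 ± 0.711 CPM rested and 1.83 ± 0.182 CPM fresh (log2 fold change 1.28, edgeR adjusted p = 8.4e-09). The costimulatory receptor Icos averaged 98.5 ± 14.7 CPM rested and 64.5 ± 5.11 CPM fresh (log2 fold change 0.61, edgeR adjusted p = 2.1e-05). Irf4, which marks the strength of TCR signals, was 6.97, 5.57, 10.1 and 9.9 CPM in the rested libraries, against 7.31, 6.87, 6.31 and 6.77 CPM in the fresh ones. The difference did not pass the test (log2 fold change 0.26, edgeR adjusted p = 0.32). Rested replicates 3 and 4 lay above the fresh range for Irf4 and replicates 1 and 2 did not, and the change with rested replicates 3 and 4 as the only rested libraries was 0.563 (edgeR adjusted p = 3.7e-05). With rested replicate 3 as the only rested library, fewer members of the list fell and more rose than over all libraries.

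The window before 1 of the 5 RefSeq starts of Egr2 (GRCm38.p6, chr10:67537316-67537565, plus strand) is given because it holds a CArG box, the element bound by serum response factor, in capitals.
Egr2: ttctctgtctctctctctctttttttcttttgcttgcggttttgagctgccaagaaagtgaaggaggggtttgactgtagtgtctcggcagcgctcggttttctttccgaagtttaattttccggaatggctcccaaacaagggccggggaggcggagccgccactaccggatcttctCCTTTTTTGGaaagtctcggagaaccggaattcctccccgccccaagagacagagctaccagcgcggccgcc
Windows of other Egr2 starts held a CArG box as well, with the letters CCATATATGG. A CArG box was searched by its usual definition on both strands. It was present in 2 of 18 genes of the TCR-induced list with a window (11.1%). The share was 1.47% of all windows and 1.39% of tested genes with a window.

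A separate list of immediate early genes, which also respond to cell handling, had more members higher than lower. The Egr and Nr4a genes named above, which can be classed as immediate early genes too, were placed in the TCR-induced list only. Any contrast between the 2 lists therefore depends on how members were assigned. Of the 24 tested members of the immediate early list 9 rose (37.5%) and 4 fell (16.7%), with a median of 0.21. Over all genes 26.2% were called in each direction. Fos, a subunit of the transcription factor AP-1, was 32.8, 29.5, 24.5 and 27.3 CPM in the rested libraries, against 9.64, 6.87, 9.24 and 10.2 CPM in the fresh ones. Fos did not overlap between the groups, with the rested libraries above the fresh ones (log2 fold change 1.66, edgeR adjusted p = 9.6e-06). Klf6 averaged 283 ± 20.7 CPM rested and 89.6 ± 3.32 CPM fresh (log2 fold change 1.66, edgeR adjusted p = 8.5e-16). Maff averaged 6.35 ± 1.103 CPM rested and 1.85 ± 0.539 CPM fresh (log2 fold change 1.77, edgeR adjusted p = 1.4e-07). The stress phosphatase Dusp1 averaged 19.1 ± 2.43 CPM rested and 9.63 ± 1.09 CPM fresh (log2 fold change 0.98, edgeR adjusted p = 1.4e-07). Rgs1, an inhibitor of chemokine receptor signalling, was 28.95, 25.4, 67.1 and 47.3 CPM in the rested libraries, against 2.63, 2.52, 2.98 and 2.397 CPM in the fresh ones. Its rested values differed among themselves by more than a factor of 2, with replicate 3 the highest (log2 fold change 4.00 ± 0.31 (SE), edgeR adjusted p = 7e-10). The heat shock gene Hspa1b was 0.292, 0.201, 0.958 and 0.514 CPM in the rested libraries, against 1.23, 1.67, 38.9 and 4.46 CPM in the fresh ones. Fresh replicate 3 alone was high, and without it the change was -2.33 (edgeR adjusted p = 0.18), against -4.55 with all libraries (edgeR adjusted p = 0.014).

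Components of the TCR complex and the kinases and adapters next to it tended to be lower, by modest amounts. Of 28 such genes 16 fell and 5 rose, with a median log2 fold change of -0.20. The CD3 chain gene Cd3g averaged 319 ± 33.8 CPM rested and 517 ± 14.5 CPM fresh (log2 fold change -0.697, edgeR adjusted p = 8.7e-09). The CD3 chain gene Cd3e averaged 229 ± 24.8 CPM rested and 351 ± 9.04 CPM fresh (log2 fold change -0.62, edgeR adjusted p = 7.6e-07). The kinase gene Lck averaged 731 ± 35.99 CPM rested and 967 ± 33.7 CPM fresh (log2 fold change -0.405, edgeR adjusted p = 5.6e-07). Zap70, the kinase that acts next, averaged 202 ± 10.4 CPM rested and 273 ± 4.01 CPM fresh (log2 fold change -0.43, edgeR adjusted p = 1.2e-08). None of these 4 genes had overlapping groups. Among the 5 that rose were Rasgrp1 and Trat1, by about 2-fold. Rasgrp1, which activates Ras downstream of the TCR, was 1471, 1372, 1059.8 and 1434 CPM in the rested libraries, against 680.2, 677, 611 and 717 CPM in the fresh ones. Rasgrp1 set the groups apart, with all rested values above all fresh values (log2 fold change 0.99, edgeR adjusted p = 4.3e-09). Trat1, a transmembrane adapter that stabilises the TCR complex, averaged 145 ± 27.9 CPM rested and 62.1 ± 1.64 CPM fresh (log2 fold change 1.22, edgeR adjusted p = 1.5e-07).

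Of 34 negative regulators of TCR signalling, 17 fell and 8 rose, with a median of -0.36. Those that fell included Cd5 itself and its relative Cd6, which averaged 506 ± 35.1 CPM rested and 996 ± 52.6 CPM fresh (log2 fold change -0.98, edgeR adjusted p = 8.5e-12). The phosphatase gene Ptpn7, which acts on ERK and p38, was 60.4, 59.1, 54.3 and 49.7 CPM in the rested libraries, against 191, 212, 230.3 and 190.4 CPM in the fresh ones. Ptpn7 was lower in every rested library than in any fresh one (log2 fold change -1.88 ± 0.074 (SE), edgeR adjusted p = 1e-14). Folr4, the folate receptor 4 of Treg and anergic cells, averaged 69.3 ± 7.59 CPM rested and 224 ± 2.19 CPM fresh (log2 fold change -1.69, edgeR adjusted p = 2.7e-14). The phosphatase gene Ptpn6 (SHP-1) averaged 211 ± 16.2 CPM rested and 362 ± 33.8 CPM fresh (log2 fold change -0.78, edgeR adjusted p = 1.3e-07). The inhibitory receptor gene Pdcd1 averaged 2.88 ± 0.5701 CPM rested and 8.12 ± 1.02 CPM fresh (log2 fold change -1.49, edgeR adjusted p = 1.3e-06). Ctla4, a coinhibitory receptor that is also STAT5- and TCR-inducible, moved the other way. It was 37.2, 35.9, 35.8 and 33.8 CPM in the rested libraries, against 3.45, 4.19, 3.103 and 3.05 CPM in the fresh ones. The rested libraries lay within a narrow range, far above the fresh ones (log2 fold change 3.38 ± 0.11 (SE), edgeR adjusted p = 6.7e-16). Nt5e (CD73), the enzyme that makes adenosine from AMP, averaged 146 ± 11.9 CPM rested and 43.8 ± 3.84 CPM fresh (log2 fold change 1.73, edgeR adjusted p = 1.1e-10).

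Genes stimulated by type I interferon fell almost as a block. Of 35 tested members of a list of 36, 31 fell (88.6%) and 2 rose, and the median log2 fold change was -1.55. Rsad2 (viperin), an antiviral enzyme, was 0.875, 1.23, 0.745 and 1.07 CPM in the rested libraries, against 14.8, 12.96, 11.9 and 10.7 CPM in the fresh ones. Rsad2 did not overlap between the groups, with the rested libraries below the fresh ones (log2 fold change -3.67 ± 0.19 (SE), edgeR adjusted p = 1e-12). Ifit3, an antiviral adapter protein, was 3.84, 2.55, 3.41 and 4.85 CPM in the rested libraries, against 36.6, 35.5, 27.01 and 28.7 CPM in the fresh ones. Ifit3 set the groups apart, with all rested values below all fresh values (log2 fold change -3.13 ± 0.17 (SE), edgeR adjusted p = 1.7e-12). Isg15, the ubiquitin-like modifier, was 4.03, 4.75, 5.05 and 4.45 CPM in the rested libraries, against 28.5, 25.5, 24.9 and 22.6 CPM in the fresh ones. Isg15 was lower in every rested library than in any fresh one (log2 fold change -2.47 ± 0.098 (SE), edgeR adjusted p = 1.1e-14). The dynamin-like GTPase genes fell with them. Mx1 averaged 0.328 ± 0.216 CPM rested and 9.17 ± 1.08 CPM fresh (log2 fold change -4.85, edgeR adjusted p = 1.6e-11). Its relative Mx2 averaged 1.01 ± 0.154 CPM rested and 9.04 ± 0.882 CPM fresh (log2 fold change -3.17, edgeR adjusted p = 1.4e-12). Ifit1, which binds RNA that lacks cap methylation, averaged 8.41 ± 1.52 CPM rested and 51.9 ± 4.91 CPM fresh (log2 fold change -2.62, edgeR adjusted p = 1.1e-11). Oas2, a 2′-5′ oligoadenylate synthetase, averaged 13.6 ± 4.602 CPM rested and 96.5 ± 8.96 CPM fresh (log2 fold change -2.83, edgeR adjusted p = 1.5e-10). The interferon-induced gene Ifi44 averaged 1.04 ± 0.219 CPM rested and 10.5 ± 3.37 CPM fresh (log2 fold change -3.34, edgeR adjusted p = 2e-09).

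A transcription factor of the pathway fell too. Irf7, the factor that amplifies the interferon response, was 27.04, 28.7, 30.7 and 27.3 CPM in the rested libraries, against 149, 142, 129 and 129.6 CPM in the fresh ones. Irf7 set the groups apart, with all rested values below all fresh values (log2 fold change -2.27 ± 0.066 (SE), edgeR adjusted p = 1.1e-16). The 2 members that rose were Samhd1 and Ifi35. Samhd1, which degrades deoxynucleotides, averaged 1128 ± 133 CPM rested and 607 ± 26.99 CPM fresh (log2 fold change 0.89, edgeR adjusted p = 4.9e-10). Ifi35 averaged 76.7 ± 4.65 CPM rested and 59.6 ± 2.16 CPM fresh (log2 fold change 0.36, edgeR adjusted p = 3.9e-05). The count of lower genes was 31 of 35 also with rested replicate 3 alone and with rested replicates 1, 2 and 4.

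The windows of 3 of the fallen genes are shown because each holds the core of the interferon-stimulated response element, GAAA followed after any 2 bases by GAAA, on either strand, in capitals. They are the 250 bases before the RefSeq start (GRCm38.p6) of Ifit3 at chr19:34583279-34583528 on the plus strand, of Isg15 at chr4:156200819-156201068 on the minus strand and of Rsad2 at chr12:26456453-26456702 on the minus strand. Ifit3 has 2 separate matches, Isg15 has 3 that overlap in a run, and Rsad2 has 1.
Ifit3: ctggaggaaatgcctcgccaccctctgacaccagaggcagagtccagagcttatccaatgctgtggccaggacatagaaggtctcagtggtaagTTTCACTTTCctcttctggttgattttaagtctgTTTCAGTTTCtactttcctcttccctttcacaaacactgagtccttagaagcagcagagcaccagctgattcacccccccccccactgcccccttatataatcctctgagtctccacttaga
Isg15: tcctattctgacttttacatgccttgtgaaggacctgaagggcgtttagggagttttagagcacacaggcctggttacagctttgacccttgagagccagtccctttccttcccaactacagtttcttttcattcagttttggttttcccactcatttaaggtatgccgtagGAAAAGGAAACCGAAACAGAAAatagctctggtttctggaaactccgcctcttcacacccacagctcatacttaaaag
Rsad2: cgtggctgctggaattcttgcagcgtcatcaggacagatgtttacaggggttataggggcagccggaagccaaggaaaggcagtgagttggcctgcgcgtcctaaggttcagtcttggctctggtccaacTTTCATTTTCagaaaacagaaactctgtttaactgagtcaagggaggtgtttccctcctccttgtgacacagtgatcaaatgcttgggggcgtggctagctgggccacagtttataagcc
This core was present in 10 of the 25 interferon list genes with a window (40.0%). The share was 2.98% of all windows and 3.16% of tested genes with a window. It was 4.39% of 2439 such genes called lower and 2.86% of 2481 called higher.

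Genes of the immunity-related and guanylate-binding GTPases and of antigen presentation, which respond to interferon gamma as well, were more often lower than higher. Of 26 genes 16 fell and 3 rose, with a median of -0.37. Gbp6 was 29.9, 26.8, 28.8 and 34.5 CPM in the rested libraries, against 109, 109.7, 116 and 104 CPM in the fresh ones. Gbp6 set the groups apart, with all rested values below all fresh values (log2 fold change -1.87 ± 0.078 (SE), edgeR adjusted p = 2.7e-14). Irgm1, an immunity-related GTPase, averaged 46.7 ± 5.35 CPM rested and 128 ± 4.73 CPM fresh (log2 fold change -1.46, edgeR adjusted p = 1.4e-12). Gbp9 averaged 105 ± 10.8 CPM rested and 252 ± 7.92 CPM fresh (log2 fold change -1.26, edgeR adjusted p = 2.9e-12). Outside the list, Gbp10 averaged 1.81 ± 0.323 CPM rested and 17.5 ± 2.35 CPM fresh (log2 fold change -3.28, edgeR adjusted p = 1.1e-14). Gbp11 was 100.5, 99.4, 100.2 and 124 CPM in the rested libraries, against 7.23, 7.84, 9.7 and 7.16 CPM in the fresh ones. Gbp11 was higher in every rested library than in any fresh one (log2 fold change 3.73 ± 0.12 (SE), edgeR adjusted p = 7.2e-16). The guanylate-binding protein genes are close copies of each other, and how reads that match several of them were counted is not stated in the sources used here.

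**Figure D3:**
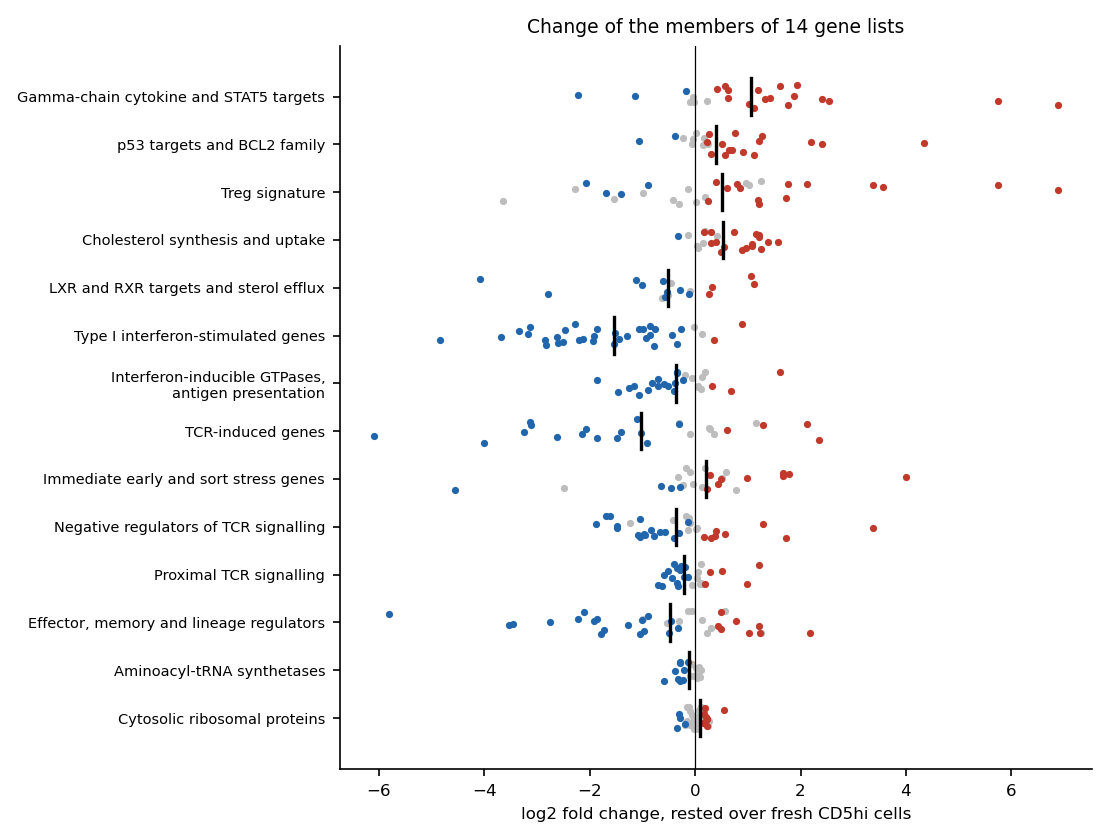
Log2 fold change, rested over fresh CD5hi cells (horizontal axis), of each tested member of 14 gene lists (rows). Red points are genes called higher, blue points genes called lower and grey points genes not called; the black line is the median of the list. The type I interferon row lies almost wholly left of 0, with a median of -1.55, the cytokine and cholesterol rows lie mostly right of it, with medians of 1.06 and 0.53, and the ribosomal proteins stay close to 0.

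Genes of cholesterol synthesis and uptake mostly rose. Of 24 tested genes 17 were higher and 1, Pmvk, was lower, with a median of 0.53. Acat2, the cytosolic thiolase at the start of the pathway, was 57.8, 61.1, 57.7 and 64.9 CPM in the rested libraries, against 18.6, 20.8, 21.7 and 19.8 CPM in the fresh ones. Acat2 did not overlap between the groups, with the rested libraries above the fresh ones (log2 fold change 1.58 ± 0.076 (SE), edgeR adjusted p = 2.8e-13). Idi1, the isomerase of isoprenoid units, averaged 67.01 ± 6.79 CPM rested and 29.98 ± 3.14 CPM fresh (log2 fold change 1.16, edgeR adjusted p = 2e-08). Insig1, a target and brake of the SREBP transcription factors that drive these genes, averaged 84.1 ± 12.7 CPM rested and 36.2 ± 0.629 CPM fresh (log2 fold change 1.22, edgeR adjusted p = 9.7e-10).

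Genes of sterol efflux, targets of the liver X receptors (LXR), went the other way. Of 17 genes 9 fell and 4 rose, with a median of -0.52. Abca1, the transporter that loads cholesterol onto lipoprotein particles, was 4.27, 4.42, 4.88 and 5.03 CPM in the rested libraries, against 63.9, 83.8, 96.6 and 72.01 CPM in the fresh ones. The rested values were all within a narrow range of each other, while the fresh ones were spread more widely and far above (log2 fold change -4.09 ± 0.16 (SE), edgeR adjusted p = 7.1e-15). Scd2, a fatty acid desaturase, was 25.2, 25.2, 21.01 and 19.9 CPM in the rested libraries, against 145, 163, 168 and 155 CPM in the fresh ones. Scd2 did not overlap between the groups, with the rested libraries below the fresh ones (log2 fold change -2.79 ± 0.090 (SE), edgeR adjusted p = 5e-16). The ubiquitin ligase gene Mylip averaged 50.5 ± 1.81 CPM rested and 109 ± 2.92 CPM fresh (log2 fold change -1.11, edgeR adjusted p = 6.4e-13). The transporter gene Abcg1 averaged 74.7 ± 8.53 CPM rested and 149.9 ± 3.93 CPM fresh (log2 fold change -1.01, edgeR adjusted p = 3e-09). Among those that rose was Rxra, a partner receptor of LXR, at 32.3 ± 3.06 CPM rested and 15.4 ± 0.976 CPM fresh (log2 fold change 1.06, edgeR adjusted p = 8.8e-11). Fatty acid genes showed no common direction, with 7 of 20 higher (35%) and 5 lower (25%), against 26.2% of all genes in each direction.

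Several macrophage transcripts moved with the interferon and sterol efflux groups, and their part in those changes was not tested. The marker list of myeloid and dendritic cells (20 genes among the deposited symbols, 17 tested) had 11 genes lower (64.7%) and 1 higher (5.88%). Over all genes 26.2% were called in each direction. The summed level of the list was 39.7 to 52.1 CPM in rested and 52.5 to 58.2 CPM in fresh libraries. The largest part of that sum was Cst3, a cysteine protease inhibitor that many cells express, which averaged 33.4 ± 6.21 CPM rested and 27.04 ± 0.993 CPM fresh (log2 fold change 0.31, edgeR adjusted p = 0.014). The macrophage marker Cd68 averaged 2.59 ± 0.4704 CPM rested and 3.13 ± 0.171 CPM fresh, a difference that did not pass (log2 fold change -0.27, edgeR adjusted p = 0.2). Vcam1 was at 0 in every rested library and at 2.72, 3.22, 4.01 and 3.396 CPM in the fresh ones. C1qb, a complement gene of tissue macrophages, was also at 0 in every rested library, against 1.64, 1.71, 2.199 and 1.55 CPM in the fresh ones. A count of 0 allows at most 0.0795 CPM in the shallowest rested library, taken as 3 counts, which covers counting error only. Csf1r, the macrophage growth factor receptor, averaged 0.0677 ± 0.0605 CPM rested and 3.21 ± 0.818 CPM fresh.

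Other lineages were traced in the same way. The 9 tested markers of B cells held 6 that were higher (66.7%) and 1 that was lower (11.1%), against 26.2% of all genes in each direction. The summed level of the list was 6.93 to 12.7 CPM rested and 4.86 to 7.1 CPM fresh. Ms4a1 (CD20) was 0.954, 2.17, 1.53 and 0.849 CPM in the rested libraries, against 0.216, 0.135, 0.3901 and 0.3496 CPM in the fresh ones. Ms4a1 set the groups apart, with all rested values above all fresh values (log2 fold change 2.30, edgeR adjusted p = 1.9e-05). Cd79a, the B cell marker with the highest level, averaged 2.71 ± 0.674 CPM rested and 3.01 ± 0.803 CPM fresh and did not pass (edgeR adjusted p = 0.62). Cr2 was the marker that was lower (log2 fold change -1.05, edgeR adjusted p = 0.026). Igj did not pass, with all rested values below all fresh values (log2 fold change -1.23, edgeR adjusted p = 0.075). Markers of CD8 and NK cells summed to 21.8 to 26.2 CPM in rested and 41.7 to 45.5 CPM in fresh libraries. Of 9 tested, 5 were lower (55.6%) and none higher. This list had 12 genes, of which 10 were among the deposited symbols. Its gamma-delta genes Trdc and Tcrg-C1 were not, so gamma-delta cells were not traced. The NK receptor gene Ncr1 was at 0 in all 8 libraries and Gzma in the 4 rested ones. Eomes, shared by NK and memory T cells, averaged 1.28 ± 0.325 CPM rested and 5.596 ± 0.777 CPM fresh (log2 fold change -2.11, edgeR adjusted p = 9.5e-08). Of 9 tested erythroid, platelet and stromal markers 7 were lower (77.8%) and 2 higher (22.2%). The sum of that list was 333 to 356 CPM rested and 267 to 307 CPM fresh. Most of it was Pecam1 (338 ± 13.7 CPM rested and 256 ± 16.8 CPM fresh), which T cells express as well. The part of these cells in the results was not tested.

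Metabolic genes changed in several directions. Of 23 glycolytic genes 12 rose and 7 fell. Eno1 (enolase) was 472, 470.2, 522 and 457 CPM in the rested libraries, against 233, 249, 254 and 244 CPM in the fresh ones. Eno1 was higher in every rested library than in any fresh one (log2 fold change 0.97 ± 0.053 (SE), edgeR adjusted p = 2.2e-12). Hk2, the inducible hexokinase, averaged 1.07 ± 0.244 CPM rested and 0.2798 ± 0.123 CPM fresh (log2 fold change 1.93, edgeR adjusted p = 7.4e-05). The lactate exporter gene Slc16a3 averaged 1.63 ± 0.413 CPM rested and 3.86 ± 0.689 CPM fresh (log2 fold change -1.24, edgeR adjusted p = 5.1e-06). Among 19 genes of the hypoxia response, 10 were higher and 2 lower. Ndrg1 averaged 69.9 ± 4.39 CPM rested and 29.1 ± 1.83 CPM fresh (log2 fold change 1.26, edgeR adjusted p = 2.4e-12). Ddit4 (REDD1), an inhibitor of mTOR that hypoxia and glucocorticoids induce, was 30.3, 27.97, 30.6 and 21.5 CPM in the rested libraries, against 168, 219.8, 261 and 302 CPM in the fresh ones. It was lower in each rested library than in any fresh library (log2 fold change -3.11 ± 0.19 (SE), edgeR adjusted p = 1.6e-11). Genes of redox defence rose in 11 of 24 cases and fell in 2, with Prdx1 at 234 ± 52.6 CPM rested and 123 ± 2.298 CPM fresh (log2 fold change 0.93, edgeR adjusted p = 3.2e-06). The haem oxygenase gene Hmox1 averaged 0.846 ± 0.173 CPM rested and 2.79 ± 0.506 CPM fresh (log2 fold change -1.71, edgeR adjusted p = 4.2e-07).

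Genes of the translation and protein-folding machinery moved by small steps. Myc, which drives ribosome biogenesis and is itself induced by TCR and cytokine signals, was 189, 191, 179 and 183 CPM in the rested libraries, against 99.03, 78.5, 90.4 and 94.1 CPM in the fresh ones. Myc was higher in every rested library than in any fresh one (log2 fold change 1.03 ± 0.076 (SE), edgeR adjusted p = 2.8e-10). Of 35 ribosome biogenesis genes 12 rose and 3 fell, with a median of 0.10. Wdr12 had the largest rise of them, at 80.03 ± 13.7 CPM rested and 32.2 ± 2.26 CPM fresh (log2 fold change 1.31, edgeR adjusted p = 1.2e-08). No aminoacyl-tRNA synthetase was higher and 9 of 20 were lower. Cars, the cysteine enzyme, averaged 20.7 ± 1.36 CPM rested and 31.3 ± 5.63 CPM fresh (log2 fold change -0.596, edgeR adjusted p = 0.00018). Yars, the tyrosine enzyme, averaged 31.5 ± 2.33 CPM rested and 41.3 ± 2.04 CPM fresh (log2 fold change -0.39, edgeR adjusted p = 2.5e-05). With rested replicate 3 as the only rested library, fewer synthetases were lower, and the called ones did not all fall.

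Counts of ribosomal protein, respiratory chain and proteasome genes depended on rested replicate 3. Of 43 ribosomal protein genes 8 rose and 4 fell over all libraries, and 2 rose without rested replicate 3. Of 34 subunits of oxidative phosphorylation 7 were higher over all libraries and 2 without it. Of 31 chaperone and proteasome genes these counts were 13 and 7. With rested replicate 3 as the only rested library, more members of each list were higher than over all libraries. Among all genes tested 3486 of 13309 were higher over all libraries, and 3191 of 13466 with rested replicates 1, 2 and 4. Rpl24 was 675, 674, 762 and 663 CPM in the rested libraries, against 468, 484, 470.0 and 468 CPM in the fresh ones. Rested replicate 3 was its highest library (log2 fold change 0.55, edgeR adjusted p = 2.8e-07). Psma3, a proteasome core subunit, was 126, 125, 184 and 127 CPM in the rested libraries, against 101, 93.8, 99.3 and 93.6 CPM in the fresh ones. Replicate 3 was again set apart from the other rested libraries (log2 fold change 0.54, edgeR adjusted p = 0.00058). The shares higher among ribosomal protein genes, 18.6%, and respiratory chain subunits, 20.6%, were below the 26.2% of all genes.

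Targets of the amino acid response factor ATF4 were split, with 9 of 24 higher and 7 lower. Trib3, a pseudokinase that ATF4 induces, was 28.8, 31.99, 38.2 and 34.8 CPM in the rested libraries, against 3.34, 3.25, 3.53 and 3.61 CPM in the fresh ones. The rested libraries were all far above the fresh ones (log2 fold change 3.28 ± 0.098 (SE), edgeR adjusted p = 1.5e-16). The translation repressor gene Eif4ebp1 averaged 6.86 ± 1.49 CPM rested and 2.93 ± 0.552 CPM fresh (log2 fold change 1.22, edgeR adjusted p = 4.6e-06). Mthfd2, a mitochondrial enzyme of folate metabolism, averaged 29.96 ± 2.52 CPM rested and 52.7 ± 3.72 CPM fresh (log2 fold change -0.82, edgeR adjusted p = 1.6e-09). Of 22 genes of the unfolded protein response 9 rose (40.9%) and 6 fell (27.3%), against 26.2% of all genes in each direction. Its factor Xbp1 averaged 63.1 ± 3.56 CPM rested and 40.8 ± 1.52 CPM fresh (log2 fold change 0.63, edgeR adjusted p = 9.1e-10). The chaperone gene Calr averaged 302 ± 18.2 CPM rested and 419 ± 17.1 CPM fresh (log2 fold change -0.47, edgeR adjusted p = 7.9e-07).

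Genes of apoptosis and of the p53 pathway mostly rose, those that promote death along with those that prevent it. Of 24 tested genes 15 were higher and 2 lower, with a median of 0.40. Bcl2l11 (BIM), the death inducer that Bcl2 holds in check, was 189, 184, 205 and 226 CPM in the rested libraries, against 80.7, 88.2, 80.6 and 83.03 CPM in the fresh ones. Bcl2l11 did not overlap between the groups, with the rested libraries above the fresh ones (log2 fold change 1.27 ± 0.067 (SE), edgeR adjusted p = 1.3e-12). Bax, which permeabilises mitochondria, averaged 105 ± 8.095 CPM rested and 62.3 ± 1.27 CPM fresh (log2 fold change 0.75, edgeR adjusted p = 5.8e-10). Bbc3 (PUMA), another death inducer, averaged 48.8 ± 12.1 CPM rested and 31.3 ± 6.29 CPM fresh (log2 fold change 0.64, edgeR adjusted p = 0.0042). Cdkn1a (p21), a p53 target that inhibits cyclin-dependent kinases, was 1.43, 1.01, 2.41 and 1.698 CPM in the rested libraries, against 0.0863, 0.0902, 0.142 and 0 CPM in the fresh ones. Cdkn1a set the groups apart, with all rested values above all fresh values (log2 fold change 4.35, edgeR adjusted p = 2.3e-07). Phlda3, another p53 target, averaged 2.62 ± 0.7903 CPM rested and 0.569 ± 0.228 CPM fresh (log2 fold change 2.21, edgeR adjusted p = 1.9e-06).

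Among 18 cell-cycle entry genes 8 rose and 4 fell. Cdk6, the kinase that works with D-type cyclins, was 68.5, 64.4, 44.1 and 65.1 CPM in the rested libraries, against 5.54, 6.29, 6.86 and 5.06 CPM in the fresh ones. All rested values were several times the fresh ones (log2 fold change 3.35 ± 0.14 (SE), edgeR adjusted p = 3.2e-14). Inhibitors of such kinases rose as well. Cdkn1b (p27) averaged 354 ± 66.3 CPM rested and 169.5 ± 8.22 CPM fresh (log2 fold change 1.06, edgeR adjusted p = 2.5e-08). Cdkn1c (p57) averaged 3.45 ± 1.59 CPM rested and 1.06 ± 0.3004 CPM fresh (log2 fold change 1.69, edgeR adjusted p = 9.5e-05). E2f2 averaged 10.6 ± 1.62 CPM rested and 29.4 ± 1.46 CPM fresh (log2 fold change -1.48, edgeR adjusted p = 4.7e-11). Of 30 genes of S phase and mitosis 8 rose (26.7%) and 4 fell (13.3%), with a median of -0.008. Over all genes 26.2% were called in each direction. The replication helicase gene Mcm7 averaged 109 ± 6.49 CPM rested and 67.3 ± 1.51 CPM fresh (log2 fold change 0.698, edgeR adjusted p = 7.7e-09). The mitotic topoisomerase gene Top2a averaged 9.28 ± 0.6699 CPM rested and 15.99 ± 2.56 CPM fresh (log2 fold change -0.78, edgeR adjusted p = 6.6e-06). The proliferation marker Mki67 averaged 8.06 ± 1.26 CPM rested and 9.47 ± 1.57 CPM fresh, a difference that did not pass (log2 fold change -0.23, edgeR adjusted p = 0.27).

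Quiescence and naive identity factors were divided evenly, with 10 of 28 higher (35.7%) and 9 lower (32.1%), against 26.2% of all genes in each direction. Foxo1, which drives Il7r and Klf2 in naive T cells, was 220.5, 213, 212 and 197 CPM in the rested libraries, against 477, 458, 413 and 498 CPM in the fresh ones. Foxo1 was lower in every rested library than in any fresh one (log2 fold change -1.13 ± 0.074 (SE), edgeR adjusted p = 5e-11). Klf2, the factor that keeps naive cells recirculating, was 629, 655, 693 and 604 CPM in the rested libraries, against 336, 319, 313 and 355 CPM in the fresh ones. Klf2 did not overlap between the groups, with the rested libraries above the fresh ones (log2 fold change 0.96 ± 0.075 (SE), edgeR adjusted p = 7.3e-10). S1pr1, the egress receptor under Klf2, averaged 1086 ± 45.1 CPM rested and 729 ± 34.5 CPM fresh (log2 fold change 0.57, edgeR adjusted p = 1.3e-07). Ccr7, the chemokine receptor for lymph node entry, averaged 511 ± 30.4 CPM rested and 484 ± 16.2 CPM fresh and did not pass (log2 fold change 0.080, edgeR adjusted p = 0.22).

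The transcription factors of the same list went in both directions. The naive factor gene Tcf7 averaged 1328 ± 57.00 CPM rested and 1999.9 ± 157 CPM fresh (log2 fold change -0.59, edgeR adjusted p = 3.5e-06). Satb1, a chromatin organiser, averaged 689 ± 31.2 CPM rested and 1088 ± 47.2 CPM fresh (log2 fold change -0.66, edgeR adjusted p = 1.2e-07). Lef1, the relative of Tcf7, averaged 470.1 ± 12.9 CPM rested and 433 ± 7.14 CPM fresh and did not pass (log2 fold change 0.12, edgeR adjusted p = 0.083). Bach2, a repressor of effector genes, averaged 319 ± 24.6 CPM rested and 206 ± 13.6 CPM fresh (log2 fold change 0.63, edgeR adjusted p = 3.8e-06). Id3, an inhibitor of E proteins that TCR signals induce, was 16.97, 20.6, 16.3 and 13.9 CPM in the rested libraries, against 59.98, 50.3, 56.7 and 59.2 CPM in the fresh ones. Id3 was lower in every rested library than in any fresh one (log2 fold change -1.74 ± 0.12 (SE), edgeR adjusted p = 1.1e-10). Slfn2, a quiescence factor, averaged 891 ± 201 CPM rested and 385 ± 12.1 CPM fresh (log2 fold change 1.21, edgeR adjusted p = 1.3e-07).

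Of 27 genes of homing and adhesion 8 rose (29.6%) and 9 fell (33.3%), near the 26.2% of all genes called in each direction. The subunits of the integrin LFA-1 fell together. Itgb2 was 259, 264, 248 and 247 CPM in the rested libraries, against 651, 669.8, 692 and 693 CPM in the fresh ones. Itgb2 did not overlap between the groups, with the rested libraries below the fresh ones (log2 fold change -1.41 ± 0.056 (SE), edgeR adjusted p = 1e-14). Itgal averaged 312 ± 9.02 CPM rested and 638 ± 14.6 CPM fresh (log2 fold change -1.03, edgeR adjusted p = 9.4e-13). The laminin-binding integrin gene Itga6 averaged 332 ± 21.9 CPM rested and 162 ± 10.2 CPM fresh (log2 fold change 1.04, edgeR adjusted p = 2.3e-12). Ly6a (Sca-1), which interferon induces, was 20.4, 19.2, 28.4 and 24.9 CPM in the rested libraries, against 106, 109, 120.5 and 93.5 CPM in the fresh ones. Ly6a set the groups apart, with all rested values below all fresh values (log2 fold change -2.21 ± 0.12 (SE), edgeR adjusted p = 3.3e-12). Gimap GTPases, which support T cell survival, rose in 5 of 8 cases and fell in 2. Gimap4 averaged 1450.0 ± 178 CPM rested and 1007 ± 24.8 CPM fresh (log2 fold change 0.53, edgeR adjusted p = 2e-05). Gimap8 averaged 399 ± 32.8 CPM rested and 631 ± 33.00 CPM fresh (log2 fold change -0.66, edgeR adjusted p = 2.1e-07).

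Of 30 genes of the Treg signature 14 rose and 4 fell, with a median of 0.51, though several of them, such as Il2ra, Socs2 and Tnfrsf18, are in the cytokine list too. Ikzf4 (Eos) was 45.9, 41.7, 35.00 and 44.7 CPM in the rested libraries, against 19.6, 17.6, 17.1 and 18.7 CPM in the fresh ones. Ikzf4 did not overlap between the groups, with the rested libraries above the fresh ones (log2 fold change 1.198 ± 0.096 (SE), edgeR adjusted p = 1.2e-09). Its relative Ikzf2 (Helios) was 4.22, 5.39, 5.26 and 5.86 CPM in the rested libraries, against 9.17, 8.97, 10.1 and 10.2 CPM in the fresh ones. Ikzf2 was lower in every rested library than in any fresh one (log2 fold change -0.89 ± 0.12 (SE), edgeR adjusted p = 3.8e-06). Lrrc32 (GARP), which presents latent TGF-beta, averaged 0.9696 ± 0.418 CPM rested and 0.0842 ± 0.0774 CPM fresh (log2 fold change 3.56, edgeR adjusted p = 7.3e-07). The repressor gene Prdm1 (Blimp-1) averaged 16.8 ± 1.56 CPM rested and 7.29 ± 1.32 CPM fresh (log2 fold change 1.21, edgeR adjusted p = 1.7e-07). Folr4 and Tnfrsf9, given above, were among the 4 that fell.

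Effector, memory and lineage genes were more often lower, with 18 of 36 tested genes lower and 8 higher and a median of -0.48. P2rx7, the receptor for extracellular ATP, was 5.99, 5.25, 2.96 and 4.402 CPM in the rested libraries, against 44.2, 61.98, 57.1 and 51.9 CPM in the fresh ones. P2rx7 did not overlap between the groups, with the rested libraries below the fresh ones (log2 fold change -3.54 ± 0.17 (SE), edgeR adjusted p = 2.8e-13). The costimulatory ligand gene Tnfsf8 (CD30 ligand) was 227, 228, 231 and 249 CPM in the rested libraries, against 50.01, 50.1, 53.6 and 52.7 CPM in the fresh ones. Tnfsf8 set the groups apart, with all rested values above all fresh values (log2 fold change 2.18 ± 0.058 (SE), edgeR adjusted p = 2.1e-17). Gata3, the helper type 2 factor, averaged 36.9 ± 1.72 CPM rested and 52.2 ± 1.49 CPM fresh (log2 fold change -0.501, edgeR adjusted p = 6e-06). The follicular receptor gene Cxcr5 averaged 1.71 ± 0.393 CPM rested and 3.47 ± 0.432 CPM fresh (log2 fold change -1.001, edgeR adjusted p = 9.2e-06). Prf1 (perforin) averaged 8.49 ± 0.895 CPM rested and 20.7 ± 0.857 CPM fresh (log2 fold change -1.28, edgeR adjusted p = 4e-10). The cytokine gene Tnf averaged 26.9 ± 0.564 CPM rested and 15.7 ± 2.46 CPM fresh (log2 fold change 0.77, edgeR adjusted p = 4.8e-06).

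In the TGF-beta, activin and Notch pathways 12 of 26 genes rose and 10 fell. Acvr1c (ALK7), a receptor of the activin family, was 37.1, 36.1, 28.2 and 38.3 CPM in the rested libraries, against 0.906, 0.811, 0.922 and 0.716 CPM in the fresh ones. Acvr1c was higher in every rested library than in any fresh one (log2 fold change 5.38 ± 0.21 (SE), edgeR adjusted p = 7.4e-15). Notch3 averaged 1.87 ± 0.665 CPM rested and 0.139 ± 0.136 CPM fresh (log2 fold change 3.79, edgeR adjusted p = 2.3e-07). Dtx1 (Deltex1), a Notch target also linked to T cell anergy, was 14.2, 16.6, 8.39 and 10.7 CPM in the rested libraries, against 319, 346, 419 and 366 CPM in the fresh ones. No rested library came near the fresh range (log2 fold change -4.86 ± 0.19 (SE), edgeR adjusted p = 1.1e-14). Tgfb3 averaged 0.2095 ± 0.1398 CPM rested and 1.699 ± 0.454 CPM fresh (log2 fold change -2.97, edgeR adjusted p = 3.4e-06).

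Of 18 clock genes 10 were higher and 2 lower, and the hours of day at which cells were sorted and lysed are not stated in the sources used here. The period gene Per2 was 2.81, 2.31, 1.32 and 1.92 CPM in the rested libraries, against 9.77, 7.71, 8.16 and 9.12 CPM in the fresh ones. Per2 set the groups apart, with all rested values below all fresh values (log2 fold change -2.06 ± 0.21 (SE), edgeR adjusted p = 4e-08). Its relative Per3 was 10.2, 8.38, 6.34 and 7.37 CPM in the rested libraries, against 3.47, 3.25, 2.62 and 2.43 CPM in the fresh ones. Per3 did not overlap between the groups, with the rested libraries above the fresh ones (log2 fold change 1.46 ± 0.17 (SE), edgeR adjusted p = 4.4e-07). The REV-ERB repressor gene Nr1d1 averaged 10.5 ± 0.383 CPM rested and 4.81 ± 0.68 CPM fresh (log2 fold change 1.13, edgeR adjusted p = 1.3e-07). Its relative Nr1d2 averaged 70.96 ± 8.13 CPM rested and 35.1 ± 0.815 CPM fresh (log2 fold change 1.02, edgeR adjusted p = 1.2e-10). The core activator gene Arntl (BMAL1) averaged 37.04 ± 4.99 CPM rested and 27.6 ± 1.32 CPM fresh (log2 fold change 0.42, edgeR adjusted p = 0.00018). Among 17 glucocorticoid targets 6 rose (35.3%) and 4 fell (23.5%), against 26.2% of all genes in each direction. Klf9 averaged 5.83 ± 0.831 CPM rested and 1.31 ± 0.193 CPM fresh (log2 fold change 2.14, edgeR adjusted p = 6e-09). The kinase gene Sgk1 averaged 42.1 ± 2.58 CPM rested and 115 ± 13.4 CPM fresh (log2 fold change -1.45, edgeR adjusted p = 1.4e-11).

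Autophagy and lysosome genes rose in 14 of 23 cases and fell in 5. Gabarapl1, a membrane-bound autophagy protein, averaged 6.82 ± 0.931 CPM rested and 2.08 ± 0.2698 CPM fresh (log2 fold change 1.71, edgeR adjusted p = 1.3e-09). Map1lc3a, of the same family, averaged 5.99 ± 1.29 CPM rested and 2.42 ± 0.619 CPM fresh (log2 fold change 1.31, edgeR adjusted p = 4.7e-06). Atg7, an enzyme that loads such proteins onto membranes, averaged 10.5 ± 0.713 CPM rested and 15.5 ± 1.03 CPM fresh (log2 fold change -0.56, edgeR adjusted p = 0.00017). Of 12 genes of DNA methylation 4 rose and 5 fell. The dioxygenase genes Tet1 and Tet3 differed in direction. Tet1 averaged 28.6 ± 5.95 CPM rested and 59.4 ± 3.96 CPM fresh (log2 fold change -1.05, edgeR adjusted p = 2.1e-06). Tet3 averaged 634 ± 57.4 CPM rested and 415 ± 17.7 CPM fresh (log2 fold change 0.61, edgeR adjusted p = 2.8e-06). Idh1, which makes the cofactor of these enzymes, averaged 21.7 ± 4.58 CPM rested and 6.89 ± 1.34 CPM fresh (log2 fold change 1.65, edgeR adjusted p = 5.5e-08). The methyl-CpG-binding protein gene Mbd2 averaged 313 ± 17.9 CPM rested and 138 ± 7.55 CPM fresh (log2 fold change 1.19, edgeR adjusted p = 3.5e-13).

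**Figure D4:**
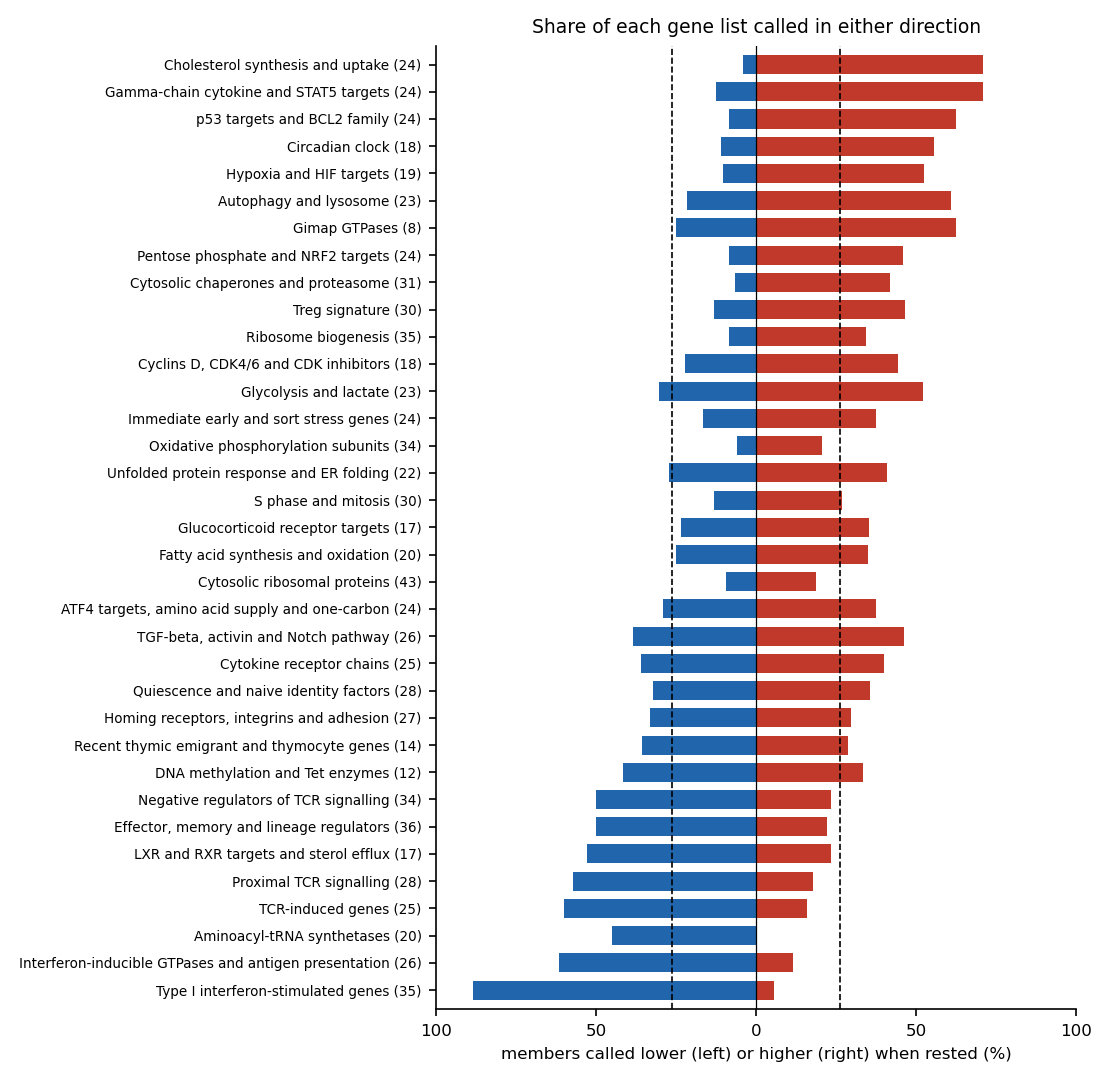
Share of the tested members of each gene list that were called lower (blue, to the left) or higher (red, to the right) in rested CD5hi cells (horizontal axis, percent; number tested in brackets). The dashed lines mark the 26.2% of all 13309 genes called in each direction. Cholesterol synthesis and STAT5 targets have the longest red bars, and type I interferon genes have the longest blue bar at 88.6%.

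Several of the largest changes were in genes outside these lists. Fsd1l was 11.3, 11.5, 8.75 and 9.56 CPM in the rested libraries, against 0.216, 0.1803, 0.0887 and 0.1498 CPM in the fresh ones. Fsd1l set the groups apart, with all rested values above all fresh values (log2 fold change 6.03 ± 0.22 (SE), edgeR adjusted p = 4.1e-15). Gpr34, a receptor for lysophosphatidylserine, was 91.4, 89.6, 114 and 108 CPM in the rested libraries, against 2.24, 2.95, 2.68 and 2.68 CPM in the fresh ones. Gpr34 was higher in every rested library than in any fresh one (log2 fold change 5.25 ± 0.14 (SE), edgeR adjusted p = 1.6e-17). Ecm1, a secreted glycoprotein known from helper type 2 cells, was 1688, 1688, 1532 and 1802 CPM in the rested libraries, against 62.2, 55.2, 64.7 and 62.6 CPM in the fresh ones. Ecm1 did not overlap between the groups, with the rested libraries above the fresh ones (log2 fold change 4.78 ± 0.076 (SE), edgeR adjusted p = 4.5e-21). The highest fresh library of each of these 3 genes was far below the lowest rested library. Myo6, an unconventional myosin, averaged 394 ± 21.6 CPM rested and 18.2 ± 1.62 CPM fresh (log2 fold change 4.44, edgeR adjusted p = 1.4e-19). The zinc transporter gene Slc30a4 averaged 341 ± 28.9 CPM rested and 24.7 ± 1.06 CPM fresh (log2 fold change 3.79, edgeR adjusted p = 4.4e-18). Gucy1a3, a subunit of guanylate cyclase, averaged 46.7 ± 15.1 CPM rested and 4.53 ± 0.3902 CPM fresh (log2 fold change 3.36, edgeR adjusted p = 2.1e-09).

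Large falls outside the lists were called as well. Slc16a5, a monocarboxylate transporter, was 1.14, 1.97, 1.21 and 1.05 CPM in the rested libraries, against 43.3, 38.4, 40.6 and 41.8 CPM in the fresh ones. Slc16a5 set the groups apart, with all rested values below all fresh values (log2 fold change -4.91 ± 0.19 (SE), edgeR adjusted p = 5.9e-15). Rasal1, a Ras GTPase activator, averaged 5.004 ± 1.29 CPM rested and 58.4 ± 4.8 CPM fresh (log2 fold change -3.55, edgeR adjusted p = 6.3e-15). Ggt1, which breaks down glutathione outside the cell, averaged 1.12 ± 0.573 CPM rested and 12.9 ± 1.495 CPM fresh (log2 fold change -3.51, edgeR adjusted p = 3e-09). Wscd2 averaged 1.55 ± 0.575 CPM rested and 15.1 ± 1.07 CPM fresh (log2 fold change -3.29, edgeR adjusted p = 5.6e-10). Spsb1, an adapter of a ubiquitin ligase, averaged 3.66 ± 0.491 CPM rested and 32.8 ± 0.451 CPM fresh (log2 fold change -3.16, edgeR adjusted p = 9e-16).

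The CD5hi response was close to that of CD5lo cells, whose rested and fresh libraries are other samples. In CD5lo cells 7221 genes were called (54.3%), and 5974 genes were called in the same direction in both, which is 85.6% of the CD5hi and 82.7% of the CD5lo calls. Across the 13309 genes the changes had a Pearson r of 0.846 and a Spearman rho of 0.858; genes are not independent, and both sets were cultured and sequenced alike. They also share the sex pattern. Y-linked transcripts were carried by 1 of 4 rested CD5lo libraries, replicate 3 as in CD5hi cells, and by 4 of 4 fresh ones. The likeness therefore holds that difference too. There were 8 genes called in opposite directions, among them Ikzf3 (Aiolos), at -0.32 in CD5hi and 0.20 in CD5lo cells, and Akr1c12, at 0.85 and -0.43. The change of Il2ra was 5.75 in CD5hi and 5.204 in CD5lo cells, that of Egr2 -4.01 and -4.01, and that of Ifit3 -3.13 and -2.404. None of the differences between these 3 pairs passed the test.

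The interaction test, which asks whether the change in CD5hi cells differs from that in CD5lo cells, called 60 genes (0.451%), of which 45 had the more negative change in CD5hi cells. An unadjusted p under 0.05 was found for 848 genes. The count was 39 without rested CD5hi replicate 1, 36 without fresh CD5hi replicate 2, 39 without fresh CD5lo replicate 1 or 4 and 10 with rested replicate 3 as the only rested library of both kinds. It was 90 without rested CD5hi replicate 3, 128 by DESeq2 and 247 with a replicate block within each state. Of the 60 genes, 19 rose in both with the smaller rise in CD5hi cells and 12 fell in both with the larger fall in CD5hi cells. Cd5 itself was among the second set. Its change was -1.09 in CD5hi and -0.64 in CD5lo cells, a difference of -0.45 ± 0.082 (SE, edgeR adjusted p = 0.011). Ubash3b (STS-1), a phosphatase that dampens TCR signals, changed by -0.67 in CD5hi and -0.18 in CD5lo cells, a difference of -0.498 ± 0.087 (SE, edgeR adjusted p = 0.0067). Sypl fell more in CD5hi cells too, with -2.25 against -1.38 in CD5lo cells (edgeR adjusted p = 0.0019).

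The largest negative differences by the naming rule were in genes that rose in both kinds of cells. Itih5, a heavy chain of the inter-alpha-trypsin inhibitor family, changed by 1.15 in CD5hi and 3.59 in CD5lo cells, a difference of -2.44 ± 0.18 (SE, edgeR adjusted p = 7.6e-08). It averaged 136 ± 5.53 CPM in rested CD5hi and 36.9 ± 3.05 CPM in rested CD5lo cells, and 61.2 ± 6.85 CPM in fresh CD5hi and 3.05 ± 0.953 CPM in fresh CD5lo cells. Mtap6, a microtubule-associated protein, changed by 5.38 in CD5hi and 7.46 in CD5lo cells (edgeR adjusted p = 0.0022 for the difference). Its fresh levels were 1.72 ± 0.159 CPM in CD5hi and 0.188 ± 0.118 CPM in CD5lo cells. The differences were -1.48 for the neuropeptide gene Qrfp (edgeR adjusted p = 0.0017), -1.34 for Fibcd1 (edgeR adjusted p = 0.0043) and -1.15 for Adamtsl4 (edgeR adjusted p = 0.00038). All 5 genes had a higher mean level in fresh CD5hi than in fresh CD5lo cells. Fresh levels enter the difference by which the genes were chosen, so this is not a separate finding.

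Smaller rises in CD5hi cells were also found for Ctla4, with 3.38 in CD5hi and 4.18 in CD5lo cells (edgeR adjusted p = 0.023 for the difference). Il10ra changed by 2.26 and 2.95 (edgeR adjusted p = 0.0042), Ikzf4 by 1.198 and 2.21 (edgeR adjusted p = 0.00075) and Ecm1 by 4.78 and 5.43 (edgeR adjusted p = 0.0012). For these 4 genes the mean fresh level was higher in CD5hi than in CD5lo cells, which again enters the difference for which they were called. Ctla4 averaged 3.45 ± 0.527 CPM in fresh CD5hi and 1.87 ± 0.175 CPM in fresh CD5lo cells, and 35.7 ± 1.43 CPM in rested CD5hi and 34.1 ± 4.65 CPM in rested CD5lo cells. The difference for Ctla4 had an edgeR adjusted p of 0.056 without fresh CD5hi replicate 2, 0.051 without fresh CD5lo replicate 1 and 0.064 without fresh CD5lo replicate 4. Larger rises in CD5hi cells were called for Gprin3, with 2.52 and 1.18 (edgeR adjusted p = 0.0015), and for the phosphoinositide phosphatase gene Mtmr3, with 1.59 and 1.07 (edgeR adjusted p = 0.0026).

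**Figure D5:**
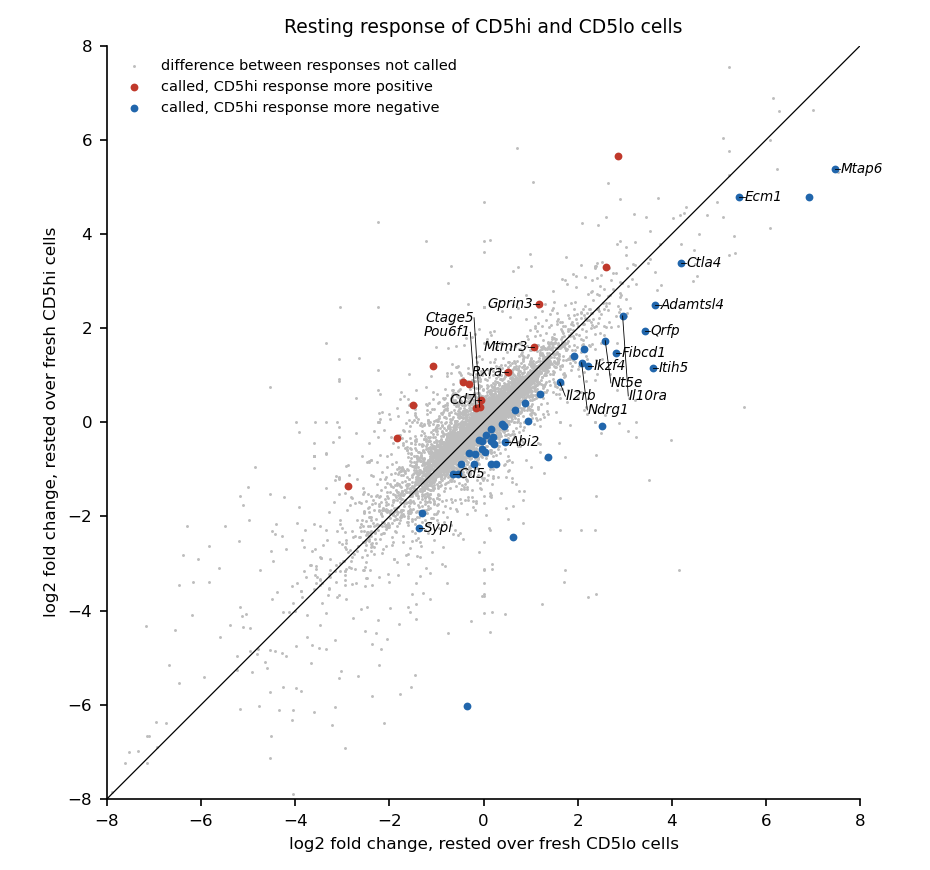
Log2 fold change on resting in CD5hi cells (vertical axis) against that in CD5lo cells (horizontal axis) for each tested gene within the axis limits. Grey points are genes whose changes were not called different, red and blue points are those called with a more positive or more negative change in CD5hi cells, and the line marks equal changes. Most points lie along the line, with Cd5 and Sypl below it at the lower left and Ctla4 and Ecm1 below it at the upper right.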

How the data were processed

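Polyadenylated RNA was made into libraries with a TruSeq mRNA kit and sequenced as 50-base reads from both ends on a HiSeq 2000, per the labels' protocols. The authors deposited whole-number read counts for 22068 gene symbols in 20 libraries. Named in the submitters' processing notes, in no order, are the mm9 build, Subread, featureCounts 1.4.5, edgeR and TopHat2 2.0.11. The annotation, the strand setting and the handling of reads that match several genes are not stated in the sources used here, so reads of overlapping or antisense genes cannot be separated. Even numbers made up 62.3 to 65.4% of the counts between 1 and 10, so both ends of many fragments appear to have been counted. The deposited normalized signal (10147 of the genes) was proportional to the counts in 20 of 20 columns and was used only for that check.

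Groups came from the titles. The quasi-likelihood test of edgeR 4.0.16 (R 4.3.3, limma 3.58.1) was run on the counts, with TMM scaling, the filterByExpr filter (13309 genes left) and 1 factor of 5 groups over all 20 libraries (15 residual degrees of freedom). Contrasts were rested minus fresh in CD5hi cells, the same in CD5lo cells, and their difference. Genes were called at a Benjamini-Hochberg adjusted p under 0.05. P-values measure the spread between libraries, which the series description calls biological replicates. CPM are counts over the TMM-scaled total. Values are mean ± SD (n = 4), and SE is the size of the log2 fold change over the square root of its F. The replicate pairs of a group differed beyond sampling noise, with a chi-square per degree of freedom of at least 4.92 in rested and 7.35 in fresh CD5hi cells.

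The 39 gene lists were written from textbook knowledge, and they and the comparison were chosen with earlier results of these data known. Named were the 16 largest rises and falls among called genes with separate groups and at least 10 CPM in the higher group, from each list up to 4 called members with the largest changes and 1 CPM or more, the sort markers, up to 8 of the largest interaction genes with at least 10 CPM in a group in each direction (6 were positive) and 7 TCR-induced genes. Some were left out for length, some items are not reported here, and further members were chosen after their values were seen. Promoter windows are the 250 bases before RefSeq starts (GRCm38.p6), matched by symbol for 9250 tested genes. Alternatives were another scaling, DESeq2 1.42.0, other filters, blocks, a term for Y-linked reads and subsets of libraries.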

Additional observations from a re-analysis of the deposited data

Results flagged for a closer look

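Of 376 groups of 4 libraries tested over the genes that the text describes, 27 had 1 library whose gap to its nearest neighbour, as a share of the range, was above Dixon's critical value for 4 samples. Chance flags about 1 in 20 groups. Rested replicate 3, the rested library with Y-linked reads, accounted for 14 of them and fresh replicate 3 for 5. Rested replicate 3 was the highest rested library for Rpl24 (762 CPM), Psma3 (184 CPM), Prdx1 (313 CPM), Cd6 (558 CPM), Il4ra (1112 CPM), Cdkn1c (5.83 CPM), Ifit1 (10.7 CPM) and Nr4a3 (3.51 CPM). It was the lowest for Bach2 (283 CPM), Cdk6 (44.1 CPM), Gata3 (34.3 CPM), Gprin3 (8.24 CPM), Adamtsl4 (82.5 CPM) and Il10ra (147 CPM). Fresh replicate 3 was the highest fresh library for Hspa1b (38.9 CPM), for the sterol gene Idi1 (34.7 CPM), for Socs1 (32.4 CPM) and for Gabarapl1 (2.48 CPM), and the lowest for Tet1 (53.5 CPM). Other libraries stood apart for Gbp11 (rested replicate 4, 124 CPM), Prdm1 and Tnfrsf9 (rested replicate 2, 14.5 and 1.91 CPM), Cd3e (fresh replicate 1, 364 CPM), Itgal, Rpl24 and Rpl12 (fresh replicate 2, 616, 484 and 2321 CPM) and Mki67 (fresh replicate 4, 7.12 CPM).

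The resting response differed between CD5hi and CD5lo cells by the interaction test (edgeR, Benjamini-Hochberg adjusted p under 0.05) for 21 of the genes that the text describes, out of 60 that passed among all genes tested. As CD5hi minus CD5lo differences in log2 fold change, these were Gprin3 (1.35), Akr1c12 (1.28), Rxra (0.54) and Mtmr3 (0.53) on the positive side. On the negative side they were Itih5 (-2.44), Mtap6 (-2.08), Qrfp (-1.48), Fibcd1 (-1.34), Adamtsl4 (-1.15), Ikzf2 (-1.15), Ikzf4 (-1.02), Sypl (-0.87), Nt5e (-0.85), Ndrg1 (-0.82), Ctla4 (-0.80), Il2rb (-0.76), Il10ra (-0.69), Ecm1 (-0.65), Ikzf3 (-0.52), Ubash3b (-0.50) and Cd5 (-0.45). With rested replicate 3 as the only rested library of each kind, 7 of these 21 passed, which were Adamtsl4, Ecm1, Ikzf4, Itih5, Mtap6, Mtmr3 and Ndrg1. Nt5e had an edgeR adjusted p of 0.024 with all libraries and 0.05 to 0.079 when rested CD5hi replicate 1, fresh CD5hi replicate 2, 3 or 4, rested CD5lo replicate 4 or fresh CD5lo replicate 4 was left out.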

How the results depend on the processing

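The count of genes called in rested against fresh CD5hi cells was 6978 and lay between 6105 and 7169 under all alternatives. It was 6972 under relative log expression scaling, 7121 by DESeq2, 6817 without a filter and 6582 with at least 1 CPM in 4 libraries. A term for Y-linked reads gave 7053 genes, of which 6117 were among the 6978 with the same direction. For relative log expression scaling and DESeq2 that overlap was 6921 and 6938 genes. With rested replicate 3 alone, assumed to vary like the other groups, 6869 genes were called, 5335 of them among the 6978. Rested replicates 1 and 2 alone gave 6241, replicates 3 and 4 alone 7169 and replicates 1, 2 and 4 gave 6573. Leaving out 1 replicate at a time gave 6305 to 6850. Of 243 genes chosen by the naming rule or added to the text, 218 kept their call under every alternative, 25 lost or gained it, and 3 changed sign. Il7r was -0.058 and Irf4 -0.14 with rested replicates 1 and 2 alone, and Rpl12 was 0.11 with rested replicate 3 alone, none of them past the threshold, and the cause was not tested.

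The replicate numbers did not pair rested and fresh libraries. Deviations from the group means correlated at 0.114, -0.037, 0.175 and -0.083 for the same-numbered pairs over 9564 genes, and only replicate 3 matched its own number best. The replicate block over all libraries gave 7155 genes, and the 8 CD5hi libraries alone gave 6254 without and 6105 with the replicate block.

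The count of genes whose CD5hi and CD5lo responses differed was the least stable. It was 60, and became 10 with rested replicate 3 alone, 128 by DESeq2, and 247 with a replicate block within each state, which assumes that CD5hi and CD5lo libraries of a number share mice. Leaving out single libraries gave 36 to 90, with 39 without rested CD5hi replicate 1, 36 without fresh CD5hi replicate 2 and 39 without fresh CD5lo replicates 1 or 4. Fewer libraries were used in these fits. All 60 genes kept their call by DESeq2 and with the block within each state. Whether CD5hi and CD5lo libraries of a number share mice was not tested. Changes in genes at under 1 CPM rest on few counts.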

Other observations

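Genes of recent thymic emigrants and thymocytes, 14 of 16 tested, were split in rested CD5hi cells. Of them 4 were higher (28.6%) and 5 lower (35.7%), against 26.2% of all genes in each direction. Dntt, the DNA polymerase that adds bases to TCR junctions in the thymus, was 2.598, 3.197, 3.62 and 3.66 CPM in the rested libraries, against 2.09, 2.01, 1.49 and 2.33 CPM in the fresh ones (log2 fold change 0.73 ± 0.15 (SE), edgeR adjusted p = 0.00032). The groups did not overlap, at levels of a few CPM. Plxnd1, a semaphorin receptor that guides thymocytes, averaged 29.7 ± 4.86 CPM rested and 16.3 ± 1.12 CPM fresh (log2 fold change 0.87, edgeR adjusted p = 1.4e-07), and Ccr9, a chemokine receptor of thymocytes and gut homing, averaged 3.604 ± 0.938 CPM rested and 6.92 ± 0.879 CPM fresh (log2 fold change -0.94, edgeR adjusted p = 0.00012).

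Single genes of the fatty acid list, which as a whole had no common direction, differed as follows. Elovl5, an elongase, was 259.9, 261, 254 and 264 CPM in the rested libraries, against 135, 143, 159 and 143 CPM in the fresh ones (log2 fold change 0.84 ± 0.057 (SE), edgeR adjusted p = 8.8e-11), and Fads1, a desaturase of polyunsaturated fatty acids, averaged 26.6 ± 2.74 CPM rested and 15.5 ± 1.35 CPM fresh (log2 fold change 0.78, edgeR adjusted p = 1.9e-08). Acacb, which makes the malonyl-CoA that holds back fatty acid oxidation, averaged 0.324 ± 0.154 CPM rested and 1.86 ± 0.507 CPM fresh (log2 fold change -2.501, edgeR adjusted p = 5e-07). Each of these 3 genes had separate groups of libraries.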
